A study of Homo sapiens with 20 samples.

Results

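This account covers 1704 regions of open chromatin that RKO cells showed under olaparib in both hairpin backgrounds and in none of the untreated lists. They were chosen from the deposited peak lists as rows of the RKO shControl olaparib list on chromosomes 1 to 22 that shared at least 1 bp with the RKO shMETTL3 olaparib list and no base with the 3 untreated RKO lists. They made up 6.75% of the 25230 rows of that list (1704 rows; 95% exact binomial interval 6.45 to 7.07%), and all 10 lists of the series together held 292390 intervals. Another 22245 rows lay on an untreated interval, and 1281 rows stood in the shControl olaparib list alone. These shares are set by the rule and are given as a description. The count leans on the merged untreated lists: with the scored untreated shControl list as the only reference 5191 rows would meet the rule, and with the merged lists as the only reference 2705.

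The assay was ATAC-seq, which reads open chromatin by letting a transposase cut accessible DNA, in RKO and LOVO, both established human colon adenocarcinoma lines. Cells expressed shControl, a control short hairpin RNA, or shMETTL3, a hairpin against METTL3, and were left untreated or given olaparib; dose and time are not given in the sources used here. In either line untreated shControl had 4 samples, of which 2 are labelled batch 2, while untreated shMETTL3 and the olaparib groups of both hairpins had 2 samples each. The lists are for groups and not for samples: untreated shControl has a list with peak scores and a merged list of intervals, untreated shMETTL3 has a merged list, and both olaparib groups have scored lists. The peak names in every scored list are those of replicate 1, so a printed score, and perhaps the interval, may stand for that replicate and not for the group. No replicate spread and no test were therefore available, and the intervals below cover counting error only. Which untreated list holds batch 2 is not given, so batch and olaparib cannot be told apart, nor can fewer cells with an open site be told apart from a less open site in each cell.

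Olaparib blocks poly(ADP-ribose) polymerases, the enzymes that mark DNA breaks, and traps PARP1 on chromatin. METTL3 is the catalytic subunit of the complex that writes N6-methyladenosine on RNA. Accessible chromatin falls into promoters, which are open in many cell types, and distal elements such as enhancers, which differ far more between cell types. AP-1, a dimer of FOS and JUN family proteins, and TEAD factors, the DNA-binding partners of YAP, are well known to bind distal elements in epithelial and cancer cells, whereas ETS, SP/KLF (GC box) and NF-Y (CCAAT box) sites are typical of promoters.

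A base sequence was available where a region lay on a promoter window, the stretch from 250 bp before to 50 bp after an annotated transcript start in RefSeq (GRCh38.p14). This held for 103 of the 1704 regions (6.04%), which touched 117 windows of 109 genes. The pieces below are examples chosen after their values were seen and are not a typical draw. AP-1 matches are more frequent among them than in the set, where 14 of the 103 regions (13.6%) held one. Coordinates here and below are on hg38. Each piece is the part of a region upstream of the start, in the direction of the gene, and capitals mark matches to the AP-1 motif TGANTCA (either strand; the letters are their own reverse complement). The first 5 carry a match and the last 2 do not.
DHRS9 (chr2:169069447-169069562, + strand): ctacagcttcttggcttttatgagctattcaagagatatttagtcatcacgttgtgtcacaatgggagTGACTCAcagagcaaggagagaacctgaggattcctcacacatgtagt
LINC02320 (chr14:101731307-101731504, - strand): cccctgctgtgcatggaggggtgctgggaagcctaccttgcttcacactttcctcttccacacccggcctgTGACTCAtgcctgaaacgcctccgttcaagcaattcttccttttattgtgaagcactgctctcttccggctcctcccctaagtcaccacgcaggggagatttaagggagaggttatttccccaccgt
LINC00114 (chr21:38773478-38773555, - strand): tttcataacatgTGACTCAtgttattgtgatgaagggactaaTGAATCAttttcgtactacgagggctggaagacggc
RAET1L (chr6:150025533-150025636, - strand): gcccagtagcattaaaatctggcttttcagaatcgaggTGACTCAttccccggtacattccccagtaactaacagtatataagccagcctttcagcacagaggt
SPRED3 (chr19:38389722-38389790, + strand): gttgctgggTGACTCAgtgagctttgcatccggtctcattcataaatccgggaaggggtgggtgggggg
ATOH1 (chr4:93828503-93828613, + strand): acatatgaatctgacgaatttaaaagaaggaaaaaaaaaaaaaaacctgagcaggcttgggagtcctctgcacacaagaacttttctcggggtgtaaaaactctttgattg
FTL (chr19:48965122-48965308, + strand): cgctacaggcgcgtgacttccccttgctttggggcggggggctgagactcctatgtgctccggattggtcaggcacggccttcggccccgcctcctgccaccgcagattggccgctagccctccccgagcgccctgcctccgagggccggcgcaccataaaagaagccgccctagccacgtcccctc

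DHRS9 encodes a retinol dehydrogenase; its region scored 8.35 in the shControl and 13.3 in the shMETTL3 olaparib list, and it was present in all 5 LOVO lists. The match lies 48 bp before an annotated start inside the gene. RAET1L encodes a ligand of the natural killer cell receptor NKG2D, and its region scored 6.84 and 8.76, with the match 66 bp before the start and presence in all 5 LOVO lists. SPRED3 encodes an inhibitor of RAS signalling, and its region, also at a start inside the gene, scored 5.65 and 3.46 and was in no LOVO list. An end of SPRED3 was already open in all 3 untreated RKO lists, with a score of 3.33 in untreated shControl. The starts of the long noncoding RNAs LINC02320 (scores 8.13 and 8.83) and LINC00114 (7.9 and 10.9) were in 5 and 4 LOVO lists. ATOH1 encodes the transcription factor that directs the secretory lineage of the gut, and its region scored 7.65 and 7.34. FTL, the ferritin light chain, has a GC-rich promoter piece and low scores of 3.55 and 3.54. The windows of DHRS9 and LINC00114 hold 39.0% and 40.7% G and C, and that of FTL 66.3%. Every piece but that of FTL and SPRED3 came from a region with an shControl olaparib score above 6.2, the median of the 1704 regions.

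AP-1 letters were more frequent in the promoter windows that these regions touched than in other promoters. The motif stood in 16 of 117 windows (13.7%; 8.02 to 21.3%), in 4.91% of the 11090 windows touched by rows on untreated intervals, and in 7.68% of all 33558 windows of the same length. The windows also differed in base composition, with a median GC share of 63.3% against 66.3% on untreated intervals and 58.7% over all windows. Among windows under 60% GC, AP-1 was found in 12 of 50 (24.0%; 13.1 to 38.2%) against 10.2% on untreated intervals and 11.5% of all. Among windows of 60% GC or more it was found in 4 of 67 (5.97%; 1.65 to 14.6%) against 3.28% and 3.38%, a difference within the counting error. Alternative starts of a gene give windows that share bases, so the 117 windows are not independent. With the scored untreated list as the only reference the share with AP-1 was 6.1%.

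The same held inside the regions themselves. Of the 103 regions, 14 (13.6%; 7.63 to 21.8%) held an AP-1 match within the bases shared with a promoter window, against 408 of 7890 rows on untreated intervals (5.17%). Per length this was 11.2 matches per 10 kb of shared sequence, against 2.04 in rows on untreated intervals. Those of these rows that were at most 300 bp wide had 4.9 per 10 kb, and 7.04% of them held a match. Rows of the shControl olaparib list alone, also off the untreated intervals, had a match in 6 of 68 (8.82%; 3.31 to 18.2%) and 7.67 per 10 kb, which cannot be separated from the regions within counting error. Among the 13 regions that scored at or above the median of the whole list, 5 held a match (38.5%; 13.9 to 68.4%). No share of other rows at such scores was computed. The shared sequence of these 13 held 54.4% G and C, against 63.4% for all 103, so score and base composition were not told apart.

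The other motifs depended on the comparison. TEAD letters (GGAATG, either strand) stood in 18.8% of the 117 windows (12.2 to 27.1%) against 10.2% on untreated intervals and 14.1% of all windows, and FOX letters (TGTTTAC) in 6.84% (3.0 to 13.0%) against 2.16% and 3.44%. Inside the regions themselves TEAD letters stood in 10.7% (5.45 to 18.3%) against 8.99% of rows on untreated intervals, which are wider. Of those of the latter rows that were at most 300 bp wide 6.41% held a match, and of rows of the shControl olaparib list alone 4.41% (0.919 to 12.4%). Per 10 kb of shared sequence there were 9.35 TEAD matches in the regions and 3.49 on untreated intervals. The narrow rows on untreated intervals had 4.0 and the rows of the list alone 3.29. ETS letters (CCGGAA) stood in 12.8% (7.36 to 20.3%) against 33.7% on untreated intervals and 17.3% of all windows, and CRE (TGACGTCA), which binds CREB and ATF factors, in 0 of 117 windows (up to 3.1%) against 3.53% and 1.86%. The GC box (GGGCGG) stood in 53.8% (44.4 to 63.1%), below the 74.5% on untreated intervals, and its interval includes the 45.0% of all windows. Against all windows, TEAD, FOX, ETS, CRE and the GC box were thus within counting error. The CCAAT box stood in 29.9% against 37.9%, RUNX letters (TGTGGT) in 6.84% against 8.62% and the E-box (CACGTG) in 5.13% against 10.3%, and the counting error of each includes the value on untreated intervals. Over all windows the values were 34.4% for the CCAAT box, 13.1% for RUNX and 7.15% for the E-box. For RUNX this lies just above the interval of the 117 windows (3.0 to 13.0%), and for the others inside it. NRF1 and NF-kB patterns stood in at most 0.855% of the 117 windows, against 1.22% and 0.572% of all windows. None of the 117 matched the p53, CTCF or HNF4 patterns, which stood in 0.0179%, 0.0179% and 0.396% of all windows. Patterns this rare would seldom be met in 117 windows, so nothing is read from their absence. A match is a description of letters, and the regions away from promoters, which are most of the 1704, were not read.

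**Figure D1:**
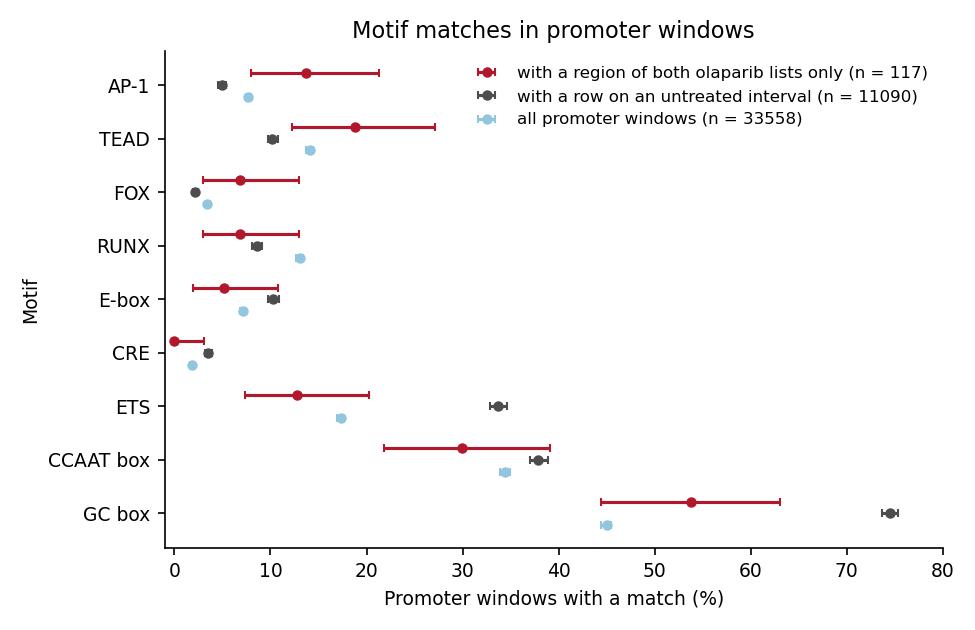
Share of promoter windows (horizontal axis, %) with a match to each of 9 motifs on either strand, for 117 windows touched by the regions of both olaparib lists only, 11090 windows touched by rows on untreated intervals and all 33558 windows; bars are 95% exact binomial intervals. AP-1, TEAD and FOX letters lie to the right of the untreated set and ETS and GC box letters to the left of it. Against all windows the intervals of TEAD, FOX, ETS and the GC box reach the value of the latter.

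The regions were weak and narrow peaks. Their score in the shControl olaparib list ran from 2.26 to 16.8 with a median of 6.2, against medians of 8.21 for rows on untreated intervals and 5.21 for rows in that list alone. In the shMETTL3 olaparib list the overlapping peak scored 2.34 to 28.0 with a median of 7.29, against 9.57 at rows on untreated intervals. The score was higher in the shMETTL3 olaparib list for 67.7% of the regions and for 70.9% of rows on untreated intervals, so that this tilt is one of the lists as a whole. The median width was 195 bp (94 to 1080 bp) against 362 bp. The scores of the pair of lists went together across the 1704 regions (Pearson r 0.68, Spearman rho 0.67) less closely than across 20906 rows on untreated intervals (0.81 and 0.79). These values come from the lists that chose the regions and from 1 pair of lists, and are a description.

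The lower the score, the larger the share of rows that met the rule. With all rows put into 5 score classes of equal size, it was 13.0% in the lowest class, then 8.41%, 6.66% and 4.19%, and 1.56% in the highest. Only 438 of the regions (25.7%) reached the median score of the list and 22 (1.29%) its top 10%. Of the rows on no untreated interval, 57.1% were found again in the shMETTL3 olaparib list, against 94.0% of rows on an untreated interval. Low scores thus moved with membership, and the part of peak detection in the count was not tested.

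**Figure D2:**
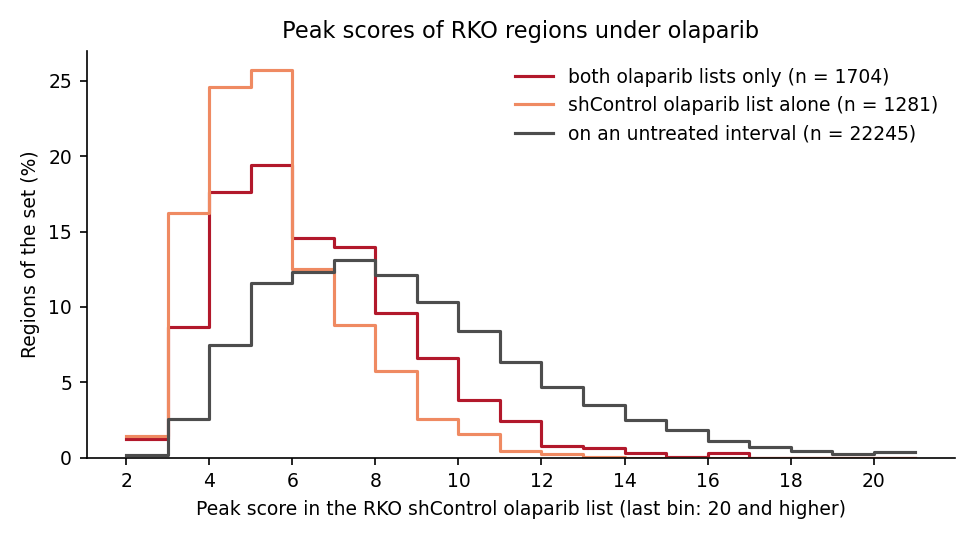
Distribution of the peak score in the RKO shControl olaparib list (horizontal axis, bins of 1; vertical axis, share of each set in %) for the regions of both olaparib lists only, the rows in that list alone and the rows on an untreated interval. The 1704 regions lie between the other sets, with medians of 6.2, 5.21 and 8.21.

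Most of the regions lay well away from untreated open chromatin. The gap to the nearest untreated RKO interval had a median of 14400 bp and ran from 1 bp to 1030000 bp. It was at most 100 bp for 34 regions, over 100 and up to 1000 bp for 258, up to 10000 bp for 430, up to 50000 bp for 581 and over 50000 bp for 401 (23.5%). Regions close to an untreated interval were mostly at genes: 155 of the 281 regions at gene ends (55.2%) lay within 1000 bp of one, against 137 of the other 1423 (9.63%). Just inside the rule stood the regions 1 bp from an untreated interval at BAX, 2 bp at B3GNT2 and 8 bp at MINDY2, and those that shared 1 bp with the shMETTL3 olaparib list at PAQR7, 5 bp at ELK3 and 9 bp at ENDOD1. Just outside it stood rows that missed the shMETTL3 olaparib list by 1, 8 and 9 bp and rows that shared 1, 4 and 5 bp with an untreated list.

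**Figure D3:**
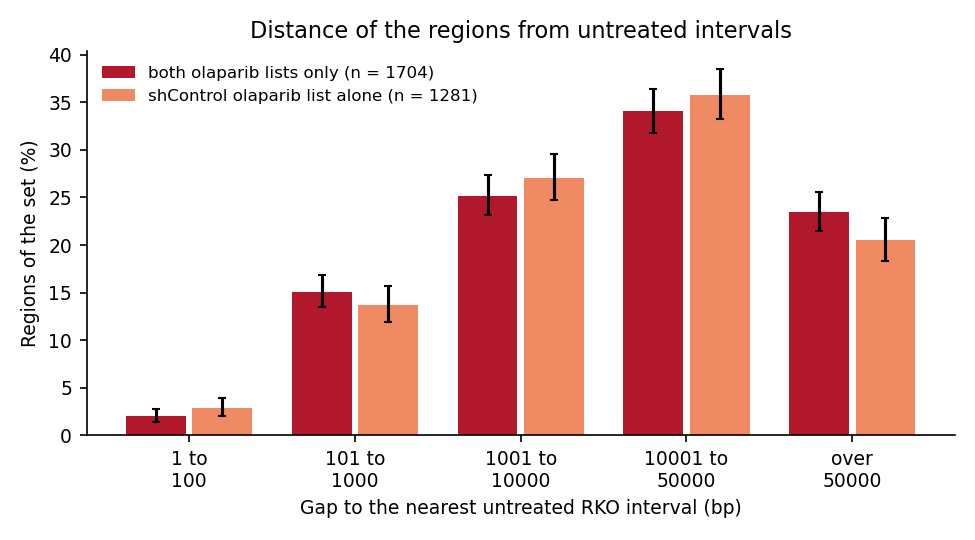
Share of regions (vertical axis, %) by the gap to the nearest untreated RKO interval (horizontal axis, bp) for the 1704 regions of both olaparib lists only and the 1281 rows of the shControl olaparib list alone; bars are 95% exact binomial intervals. The class that ends at 50000 bp is the fullest in both sets (34.1% and 35.8%).

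The regions were distal far more often than the other open chromatin of these cells. Of the 1704, 281 (16.5%; 14.8 to 18.3%) lay within 1000 bp of an end of a protein-coding gene, 707 (41.5%) inside a gene and 716 (42.0%) between genes. Rows on untreated intervals lay at gene ends in 45.8% of cases, rows in the shControl olaparib list alone in 15.9%, and the regions themselves, moved by 20 kb, in 5.75%. Position was not used by the rule. With the scored untreated list as the only reference 30.8% lay at gene ends. Annotated starts were used on 21 of the 22 chromosomes, since those of chromosome 8 were not analysed here, which holds for the motifs too. On these 21, 271 of 1585 regions (17.1%) lay within 1000 bp of a start, against 47.0% of rows on untreated intervals. Exons and introns were not told apart.

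The share at gene ends depended on the score. It was 30.8% in the lowest score class, then 11.8%, 5.65% and 3.32%, and 5.06% in the highest, while among rows on untreated intervals it went from 54.5% to 36.7%. Regions with higher scores were thus nearly all distal. Another region of the set lay within 10 kb of 66 of the 1704 (3.87%), much as for the rows of the shControl olaparib list alone among themselves (3.04% of 1281). By chromosome the share of rows that met the rule ran from 4.88% on chromosome 19 and 5.17% on chromosome 16 to 9.19% on chromosome 18 and 9.45% on chromosome 8.

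**Figure D4:**
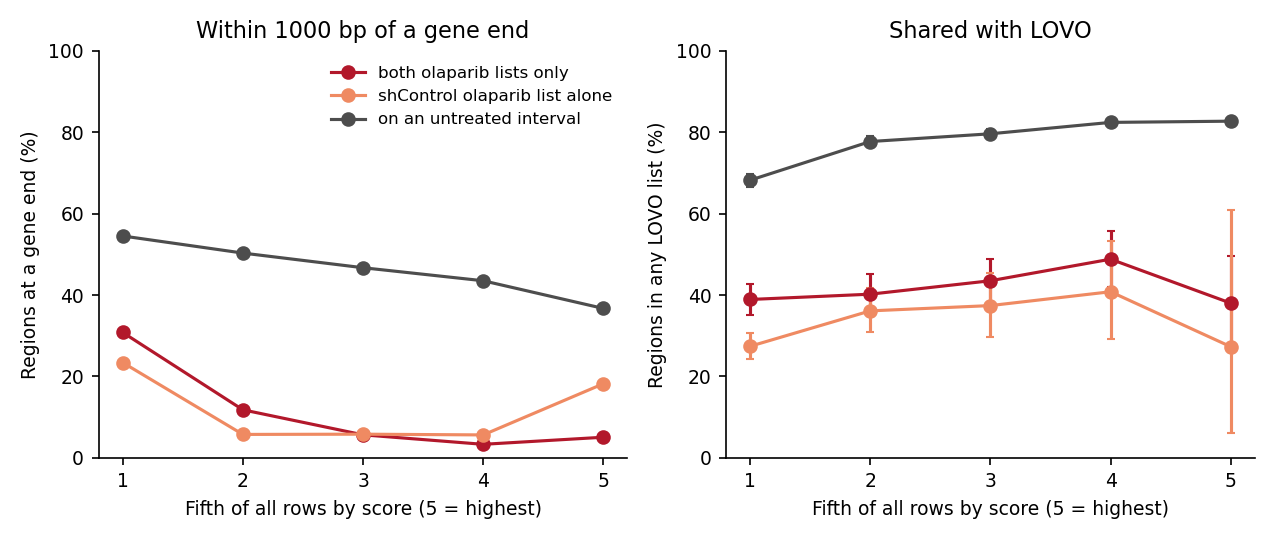
Left, share of regions within 1000 bp of a gene end (vertical axis, %) and right, share with at least 1 bp in any LOVO list (vertical axis, %; bars are 95% exact binomial intervals) by 5 score classes of equal size over all rows of the RKO shControl olaparib list (horizontal axis, 5 the highest), for 3 sets. The regions of both olaparib lists only fall from 30.8% to 5.06% at gene ends, and in each class fewer of them are shared with LOVO than of rows on an untreated interval.

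The LOVO lists, which the rule did not use, held fewer of these regions than of other open chromatin. In any LOVO list stood 704 of the 1704 regions (41.3%; 39.0 to 43.7%), against 76.1% of the other 23526 rows (17897 rows) and 2.88% of the regions moved by 20 kb. Rows on untreated intervals reached 78.6% and rows of the shControl olaparib list alone 31.5%. The gap to untreated rows held in each of the 5 score classes: from the lowest up it was 38.9, 40.2, 43.5, 48.8 and 38.0% of the regions against 68.2, 77.7, 79.6, 82.4 and 82.7%. It also held by position, with 49.8% against 91.2% at gene ends, 37.3% against 65.7% inside genes and 41.9% against 70.7% between genes.

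An untreated LOVO list held 531 of the regions (31.2%; 29.0 to 33.4%), sites that every untreated RKO list lacked, against 70.6% of the other rows. A LOVO olaparib list but no untreated one held 173 (10.2%; 8.76 to 11.7%), against 5.44% of the other rows and 6.25% of rows of the shControl olaparib list alone. By list, the scored untreated shControl list held 25.9%, the merged one 21.8%, the untreated shMETTL3 list 6.69%, the shControl olaparib list 17.2% and the shMETTL3 olaparib list 35.1%. These shares have the same order as the lengths of the lists, which held 41431, 33474, 16417, 32192 and 51462 intervals. Found in the LOVO shMETTL3 olaparib list and in no other LOVO list were 150 regions (8.8%; 7.5 to 10.2%), against 4.23% of the other rows.

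Both LOVO olaparib lists and no untreated LOVO list, the same pattern as in RKO, held 14 regions (0.822%; 0.45 to 1.37%), against 0.765% of the other rows. The equivalent set in LOVO had 910 regions, of which these 14 are 1.54%. As a share of all rows this is within counting error of the other rows, but fewer of the regions are in LOVO at all. Among the 272 regions in both LOVO olaparib lists, the 14 without an untreated LOVO interval are 5.15% (2.84 to 8.49%), against 1.35% of 13310 other rows in both lists. For rows of the RKO shControl olaparib list alone it was 7 of 156 (4.49%; 1.82 to 9.03%). The regions cannot be separated from these rows within counting error, so this share is not particular to them. All 5 LOVO lists held 97 regions (5.69%) against 35.8% of the other rows. Where LOVO had a scored peak, its score was moderate: the medians were 8.32 in untreated shControl, 7.53 in shControl with olaparib and 8.58 in shMETTL3 with olaparib, against 10.5, 9.61 and 11.1 at rows on untreated RKO intervals.

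**Figure D5:**
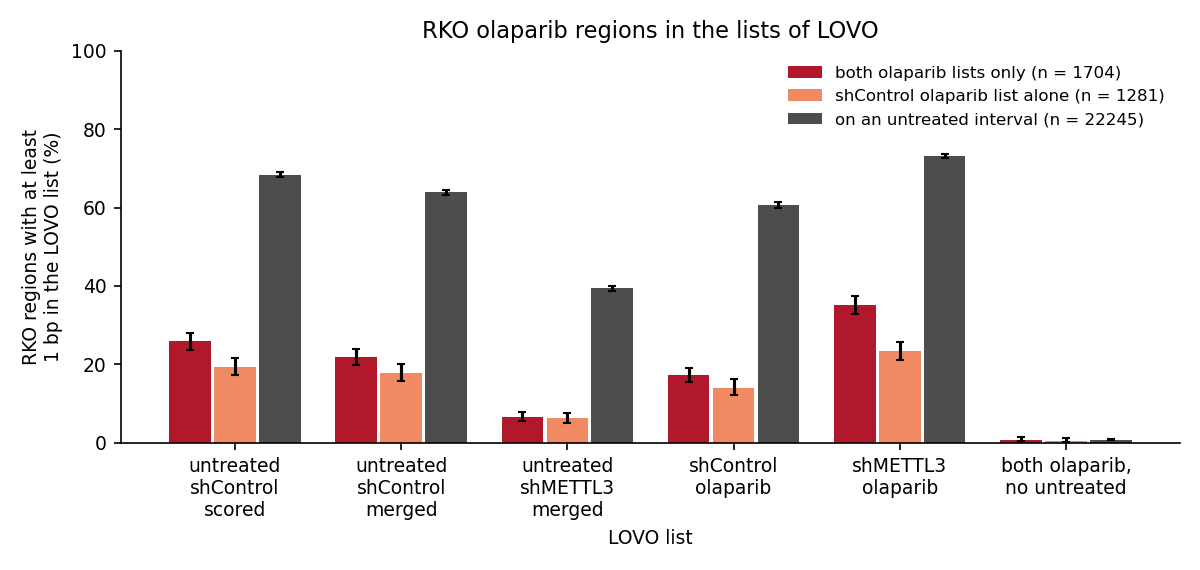
Share of RKO regions (vertical axis, %) with at least 1 bp in each LOVO list, and in both LOVO olaparib lists but no untreated LOVO list (last group), for 3 sets of rows of the RKO shControl olaparib list; bars are 95% exact binomial intervals. The regions of both olaparib lists only reach 35.1% in the LOVO shMETTL3 olaparib list and 0.822% in the last group.

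The highest scores stood at distal sites. The 15 regions with the highest shControl olaparib scores, 13.8 to 16.8, held none at a gene end, and a nearest gene below marks a place and not a target. The top region (chr8:117901227-117901670, 444 bp) lies inside EXT1, which encodes an enzyme of heparan sulfate synthesis, and scored 16.8 and 28.0 in the shControl and shMETTL3 olaparib lists. Next came a region 168 kb from LDB2 (chr4:17067073-17067357; 16.6 and 15.8) and one 51.0 kb from ERRFI1, a feedback inhibitor of the EGF receptor (chr1:8077326-8077476; 16.6 and 14.5). A region 552 kb from RIOK2 scored 16.2 and 10.8 and one 172 kb from PABPC4L scored 16.1 and 15.3. These 5 stood in no LOVO list.

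Of the other regions of the top 15, the one inside ENAH (chr1:225508624-225508805), an actin filament elongation factor, scored 15.1 and 15.2. A region 32.8 kb from DOCK1 (chr10:127485315-127485484; 14.1 and 12.4) and one inside ELMO1 (chr7:36967425-36967575; 14.1 and 12.1) were also among them. The proteins of these genes together activate the GTPase RAC1, and nothing is read from the pair. The region 7.02 kb from the potassium channel gene KCNH5 (chr14:62692232-62692442; 14.7 and 17.8) was in all 5 LOVO lists. The remaining regions lay inside AP4S1 and RNF32, 10.5 kb from KAZN, 41.3 kb from LY86, 183 kb from TSNARE1 and 463 kb from ZMIZ1. They scored 13.8 to 14.1 in shControl and 12.5 to 17.8 in shMETTL3. All 15 scored at least 10.8 in the shMETTL3 olaparib list as well.

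Other regions of all 5 LOVO lists lay inside CROCC (13.7 and 12.9), 172 kb from BCKDHB (11.5 and 17.2), 46.0 kb from DENND4C (11.1 and 15.1) and 4.34 kb from CIDEC (10.7 and 14.8). The 5 highest-scoring regions of the 14 with the olaparib pattern in both lines lay inside PTPN3, a tyrosine phosphatase (13.4 and 11.8), 96.3 kb from SHISA6 (11.2 and 15.3), inside NAT1 (7.65 and 9.43), 22.9 kb from YAP1, the coactivator of TEAD factors (chr11:102256311-102256440; 7.32 and 8.63), and 134 bp from PITX3 (5.38 and 8.3). The PITX3 region (chr10:102229876-102230055) also stands at ends of GBF1 and ELOVL3. It scored 5.36 and 7.31 in the LOVO shControl and shMETTL3 olaparib lists. The widest regions were 1081 bp at the end of NOTCH1 (scores 5.11 and 5.72), 991 bp near GJA3 (6.51 and 6.82) and 653 bp near GML (8.37 and 6.07).

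A region stood at an end of 311 of 19122 autosomal protein-coding genes (1.63%), and for 99 of them (0.518% of all genes; 31.8% of the 311) no untreated RKO interval lay at either end. The ends of these 99 genes thus stood in RKO lists with olaparib only. Of the 99, 53 (53.5%; 43.2 to 63.6%) had an interval of an untreated LOVO list at an end, against 14.7% of all 8301 genes without an untreated RKO interval there. Another 21 had one in a LOVO olaparib list only, and 25 had none in LOVO. The 99 genes were chosen by a peak at an end in RKO with olaparib and the 8301 were not. The comparison is therefore not like for like, and nothing is read from the higher share. Highest among the 99 was LRRTM3, a synaptic adhesion protein, with scores of 11.1 and 11.8 at its start (chr10:66925961-66926143) with the nearest untreated interval 299 kb away. NEBL, an actin-binding protein, scored 8.67 and 10.3, and PHKG1, a catalytic subunit of phosphorylase kinase, scored 8.38 and 6.9. PDE4B, which breaks down cyclic AMP, scored 8.35 and 9.83, and KANSL1, a scaffold of a histone acetyltransferase complex, scored 8.19 and 12.0. An end is either end of a gene and need not be a promoter: the PDE4B region lay 20369 bp from the nearest annotated start. The genes named after LRRTM3 here, the NKG2D ligand, iron and developmental genes that follow, and the promoter pieces printed above were chosen after their values were seen.

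A pair of NKG2D ligands was among the 99. MICB (region chr6:31493844-31494027) scored 9.43 and 8.27 and RAET1L 6.84 and 8.76 in the RKO shControl and shMETTL3 olaparib lists, and neither had an interval at an end in an untreated RKO list. In LOVO, RAET1L scored 10.1 in untreated shControl, 8.36 in shControl with olaparib and 11.0 in shMETTL3 with olaparib, and MICB had an untreated merged interval and a score of 11.5 in shMETTL3 with olaparib. Of the 8 genes of this ligand family, 5 were open at an end in untreated RKO cells and none of these had a region of the set: ULBP2 scored 9.94 in untreated shControl, 10.4 in shControl with olaparib and 12.4 in shMETTL3 with olaparib, ULBP3 10.4, 12.7 and 16.0, RAET1G 5.3, 8.94 and 11.8, and ULBP1 7.48, 6.76 and 9.8. MICA scored 4.98 untreated and 4.42 in shMETTL3 with olaparib and had no interval in shControl with olaparib. RAET1E was listed in no RKO list. Some of these genes are close copies of each other, and the sources used here do not say how reads that fit several copies were assigned. The same limit holds for the ferritin genes and their pseudogenes.

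Both ferritin genes, which encode the iron storage shell, were among the 99 as well, with low scores. FTH1 scored 4.08 and 4.12 and FTL 3.55 and 3.54 in the RKO olaparib lists, whereas in LOVO they scored 4.81 and 7.97 in untreated shControl. HAMP, which encodes the iron hormone hepcidin, scored 5.92 and 4.3 and was in no LOVO list. Of 12 genes of iron handling these 3 had a region and 5, among them the transferrin receptor TFRC and the ferritin receptor for autophagy NCOA4, were open in untreated RKO cells. Of the developmental regulators named here, ATOH1 stood in LOVO only in shMETTL3 with olaparib (6.96), and BMI1, a Polycomb subunit (4.53 and 3.39 in RKO), in both LOVO olaparib lists (3.61 and 6.73) and no untreated one. PTCH1, the Hedgehog receptor (3.6 and 4.9), and AXIN1, the scaffold of the complex that degrades beta-catenin (4.81 and 4.74), were open in untreated LOVO cells with scores of 5.83 and 4.93.

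Of the 470 entries of the 20 gene lists, 463 were autosomal, and 10 of these (2.16%; 1.04 to 3.94%) held a region at an end, against 1.63% of all genes. Homologous recombination had 0 of 32 and end joining 0 of 21, where 30 and 21 genes were already open in untreated RKO cells. The polymerases and base excision repair had 1 of 22 (LIG3, which seals nicks, 6.4 and 9.11), p53 targets 1 of 25 (BAX, which permeabilises mitochondria, 3.77 and 6.63), and DNA replication 1 of 30 (POLD1, a DNA polymerase subunit, 5.84 and 4.29). AP-1 and immediate early genes had 2 of 25: IER2 (4.71 and 3.64) and FOSL1, a FOS family member (2.26 and 3.27). YAP and TEAD targets had 2 of 25: TEAD3 (4.11 and 4.51) and CRIM1 (3.41 and 5.09). The interferon list had 1 of 25, IFIT2, an antiviral protein that binds foreign RNA (6.25 and 9.89), and housekeeping genes had 2 of 18, ACTB (2.98 and 2.5) and EEF1A1 (2.86 and 3.27).

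At these sizes nothing is read from counts of 0 to 2 genes per list. IER2 and IFIT2 alone of the 10 had no untreated interval at either end, and the IER2 region lay 3968 bp from the nearest annotated start. The lists for NF-kB and inflammation (25 genes), Wnt (22), intestinal identity (25), mesenchymal genes (21), leukocytes (15), neurons (14), m6A machinery (24), retroelement control (26), chromatin remodelling (32), the cytoskeleton and cell adhesion (24) and ABC transporters (12) had 0. The end of METTL3 was open in all lists and had no region of the set; peak lists do not check a knockdown.

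By nearest gene within 50000 bp, 1241 regions (72.8%) fell to 1172 genes, of which 1106 had a single region. RGMB, a coreceptor for bone morphogenetic proteins, had 4, with scores of 3.66 to 6.63, and untreated intervals at the gene as well. DUSP5, a phosphatase of ERK, had 3 of the 9 rows at the gene, with scores of 2.77 to 5.34, beside 8 intervals in the scored untreated list. EEF1E1, PFDN1, SETD5, SH3TC2, KCNN3, CDC27 and BMS1 had 2 each beside untreated intervals. For ERG, an ETS transcription factor, the 2 regions (7.82 and 9.43) were the only rows of the shControl olaparib list assigned to it. No untreated RKO list had an interval assigned to ERG. Distance was taken to a gene end and ERG is 295 kb long, so intervals deep inside the gene may not be counted. Regions within 10 kb of each other were grouped, and groups were ranked by number of regions and not by span. The largest were 3 regions over 10.2 kb from BAX to FTL (scores 2.75 to 3.77) and 3 over 9.14 kb within the T cell receptor beta locus (2.6 to 3.86, in no LOVO list). Another 30 groups held 2 regions each, among them a pair over 10.1 kb near CPAP (6.7 and 11.8).

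Markers set against the labelled cell type were sparse in RKO. Of 13 colon epithelial genes, EPCAM, KRT8, KRT18 and CDX2 were open at an end in untreated shControl cells and with olaparib, CLDN7 was added in shMETTL3 with olaparib, and KRT8 alone was open in untreated shMETTL3, the shortest list (6916 intervals). The ends of CDH1, KRT19, KRT20, VIL1, CDX1, HNF4A, CEACAM5 and ELF3 were closed in every RKO list. Leukocyte markers were open for 0 to 2 of 5 genes (SPI1 and LCP1), fibroblast markers for 0 to 2 of 5 and neuron markers for 0 to 1 of 4. No marker of the 4 lists had a region of the set at an end.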

How the data were processed

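ATAC-seq peak lists of RKO and LOVO cells were used as deposited. The genome build hg38 and the tools MACS2 2.2.7.1, DiffBind 3.0.15, Bowtie2 2.4.2 and Trim Galore 0.6.6 are named per the submitters' processing notes; their roles, read shifting, filters and the joining of samples into lists are not given in the sources used here. In 6 lists the authors deposited a score per interval, whose MACS2 column is not stated; 4 merged lists hold intervals only. Depth is unknown. No test was run because no list belongs to a single sample.

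Overlaps of 1 bp, gene windows, motifs and 95% Clopper-Pearson intervals were computed with Python 3.11.15, numpy 2.4.6, pandas 2.3.3 and scipy 1.17.1; the overlap code was tested on simulated data. Genes and promoters came from RefSeq tables on GRCh38.p14, the assembly hg38 names; promoter sequences covered 79.0% of protein-coding genes, and all 2629 overlapping windows on opposite strands matched as reverse complements. No genome was read, so motifs were counted in promoter windows instead of whole regions. The regions, lists and comparisons were chosen with earlier results of these data known. Named were the 15 highest scores, up to 4 genes per gene list, the 10 genes with most regions, the 5 highest in each LOVO class, the 3 widest, the 3 nearest each limit of the rule and the 3 largest clusters; other names are stated to be later choices.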

Additional observations from a re-analysis of the deposited data

How the results depend on the processing

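No paired analysis was possible because each list stands for a group and no sample has values. Depth is unknown, and the absence of an interval is no proof of closed chromatin. The number of regions rested on the untreated lists: 1704 became 5191 with the scored untreated list alone and 2705 with the merged lists alone. With the scored list alone, 30.8% lay at gene ends, 60.1% were in any LOVO list, 51.3% in an untreated one, the median score was 6.4 and 6.1% of promoter windows held AP-1. With the merged lists alone the LOVO shares were 44.0% and 33.7% and the median score 6.56. At or above the median score 438 regions were left, with 5.02% at gene ends, 45.0% and 34.9% in LOVO, a median score of 9.25, 12 genes with new ends in place of 99 and AP-1 in 35.7% of windows. Without regions within 1000 bp of an untreated interval, 8.92% lay at gene ends, the median score was 6.63 and AP-1 stood in 21.7%. Leaving out scores below 5, an alternative chosen after seeing the data, gave 9.31%, a median of 7.16, 55 genes and AP-1 in 23.5%. A window of 2500 bp put 25.5% at gene ends, and rows taken from the shMETTL3 olaparib list had a median of 7.25 on the scale of that list. The cause of these shifts was not tested beyond the smaller or larger sets that each choice makes. The other 40 values, including a 50% overlap and a reference without the untreated shMETTL3 list (also chosen after seeing the data), stayed within counting error or 1.5 times. The alternative of counting AP-1 over whole intervals was not run.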

Other observations

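Rows of the scored untreated RKO list that also stood in the merged shControl list and in neither olaparib list numbered 349 of 20729 (1.68%), with a median score of 5.22 and a median width of 188 bp. Of these, 30.4% lay at a gene end and 52.4% in any LOVO list, against 16.5% and 41.3% of the olaparib regions. The sets rest on different numbers of lists, and no test of the difference was possible. The share at gene ends also moves with the score: olaparib regions of the lowest score class lay there in 30.8% of cases. In LOVO the set that stands in both olaparib lists and no untreated list had 910 of 31489 rows (2.89%), with 19.7% at gene ends, 40.3% inside genes and 40.0% between genes, and 33.3% of it was in an RKO list.

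Genes of long noncoding RNAs overlapped 257 of the 1704 regions (15.1%) and 19.5% of rows on untreated intervals. A microRNA gene overlapped 0 of the 1704 (which allows up to 0.216% by the exact interval) against 0.324% of rows on untreated intervals. In shMETTL3 cells with olaparib, 8805 of 34510 rows (25.5%) lay on no untreated interval, against 11.8% in shControl with olaparib, and 7077 of them stood in that list alone.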
